A study of Drosophila melanogaster with 6 samples.

Results

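The miRNA repertoire of the control ovary was described from 2 of the 6 libraries of the study, both made from ovaries of w1118 flies. These libraries were chosen by their labels alone, and the 4 libraries of the wh7 and mei-p26 genotypes entered no comparison. The study profiled small RNA of *Drosophila melanogaster* ovaries at 7 days of adult age, and w1118, a white-eyed laboratory strain labelled wild type, is also the strain background given for both other genotypes. The deposited table lists 466 mature miRNA names from 256 precursors. The labels do not say whether the duplicates came from separate flies, so the spread given here is that between 2 libraries and may be technical. Whole ovaries were used, and in such bulk samples fewer cells of a type and less RNA per cell cannot be told apart.

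A miRNA is cut from a hairpin precursor, first by Drosha in the nucleus and then by Dicer-1 in the cytoplasm. The hairpin gives a duplex of 2 arms, 5p and 3p, of which usually 1 is kept by Argonaute-1 and guides the repression of matching messenger RNAs. Precursors that lie side by side are often transcribed together, and miRNAs that share the seed near their 5′ end recognise overlapping sets of targets. The fly ovary holds germline cells, the somatic follicle cells around them and a thin muscle sheath, and miRNAs are needed there for stem cell division, border cell migration and eggshell formation.

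Over the mature names the libraries held 149072 counts in replicate 1 and 139865 in replicate 2. CPM is the count divided by these totals and scaled in the usual way, and because mature miRNAs are of nearly the same length, levels are given with no length term. A count of 0 allowed up to 3 counts, that is 20.1 CPM in replicate 1, 21.4 CPM in replicate 2 and 10.4 CPM over both together, and this limit and all intervals below cover counting error only. Adaptor ligation favours some ends of small RNAs over others, so a difference in count between 2 miRNAs carries this preference as well as their abundance. Across the 112 names with a mean count of at least 10, log2(CPM + 1) of the libraries had a Pearson's r of 0.980, a description over miRNAs that are not independent replicates. The counts differed by more than sampling noise (chi-square of 6208 on 207 degrees of freedom), so they were not 1 library deposited 2 times, which does not show whether the duplicates were biological. The edgeR common dispersion gave a coefficient of variation of 0.240 between them.

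Ovarian miRNA was concentrated in a few species. miR-989-3p, which is needed for border cell migration, led with 24736 counts in replicate 1 and 19263 in replicate 2, a share of 15.2% ± 1.99 (SD, n = 2). miR-318-3p, a miRNA of later-stage follicle cells, followed with 18080 and 19617 counts, or 13.1% ± 1.34. Their order differed between the libraries. miR-989-3p led in replicate 1, with 16.6% against 12.1%, and miR-318-3p was higher in replicate 2, with 13.8% for miR-989-3p against 14.03%. In replicate 2 their 95% Wilson intervals overlapped (13.59 to 13.95 for miR-989-3p and 13.84 to 14.21 for miR-318-3p), so their order there was not resolved. Together they took 28.7% of replicate 1 (95% Wilson interval 28.5 to 29.0) and 27.8% of replicate 2 (27.6 to 28.0). The 10 most abundant names held 69.5% ± 0.735 of counts, and the same 10 names led both libraries. Of 466 names, 6 held 50% of counts, 26 held 90% and 71 held 99%.

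**Figure D1:**
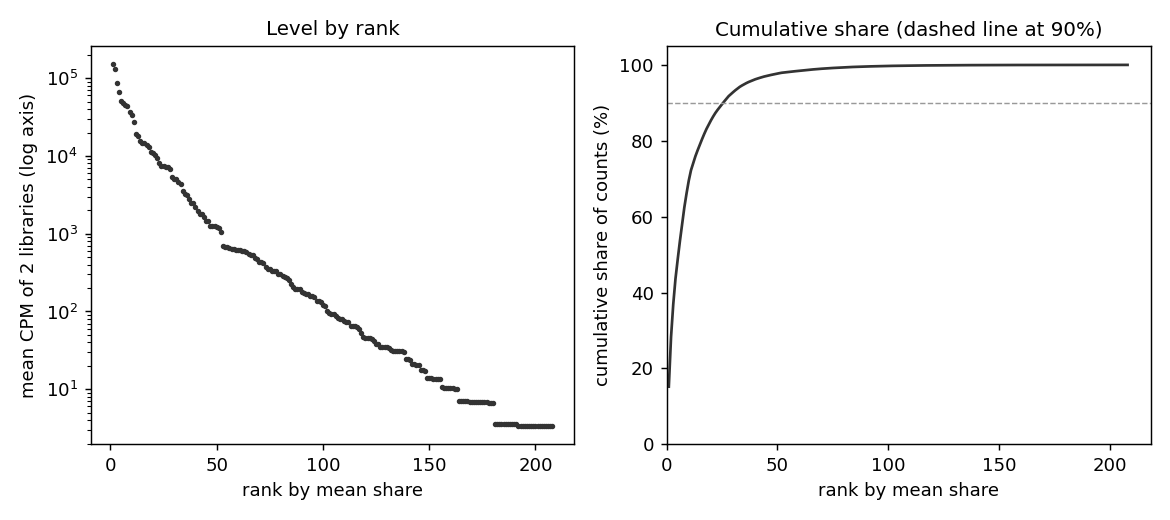
Left, mean CPM of 2 libraries on a log axis for the 208 mature names with a count, by rank. Right, the cumulative share of counts in percent by the same rank, which passes the dashed line at 90% with the name of rank 26.

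Below the leading pair stood miR-14-3p, a regulator of ecdysone receptor signalling and of cell death, with 9897 and 14958 counts (8.67% ± 2.87). miR-8-3p, the fly relative of the vertebrate miR-200 family and a regulator of growth, had 10486 and 8876 counts (6.69% ± 0.487). miR-14-3p was below miR-8-3p in replicate 1 and above it in replicate 2, so their order is not settled by 2 libraries. A group of 6 names between 3.37% and 5.09% came next. miR-9c-5p had 9360 and 5467 counts, and its neighbour miR-9b-5p had 7762 and 5404. bantam-3p, which promotes growth and blocks the proapoptotic gene hid, had 7523 and 6467 counts, and its mean share was 4.84% ± 0.299. miR-994-5p, encoded beside miR-318, had 7721 and 4954 counts. miR-276a-3p, known from olfactory memory, had 4086 and 6475 counts, the widest gap between the libraries among the 20 leading names, at 1.69-fold. miR-306-5p had 4730 and 4999 counts.

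The next 10 names each held between 1.11% and 2.73% of counts. miR-279-3p, which limits STAT activity so that border cells form in the right number, had 3721 and 4142 counts and stood apart from both of its neighbours in rank in every library. Its partner miR-996-3p had 2188 and 2074 counts, nearly equal shares of 1.47% and 1.48%. miR-12-5p had 2961 and 2537 counts. miR-11-3p, encoded in the E2f1 gene and a brake on E2f1-dependent cell death, had 2406 and 2806. miR-33-5p, encoded in the lipid regulator SREBP, had 2175 and 2321. miR-7-5p, which acts on germline stem cell division, had 2359 and 1885 counts, and miR-184-3p, whose loss blocks egg production, had 2418 and 1625. The last 3 of the 20 were the muscle miRNA miR-1-3p with 2253 and 1518 counts, miR-282-5p with 2052 and 1253, and miR-13b-3p, a member of the miR-2 family that targets proapoptotic genes, with 1501 and 1684.

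**Figure D2:**
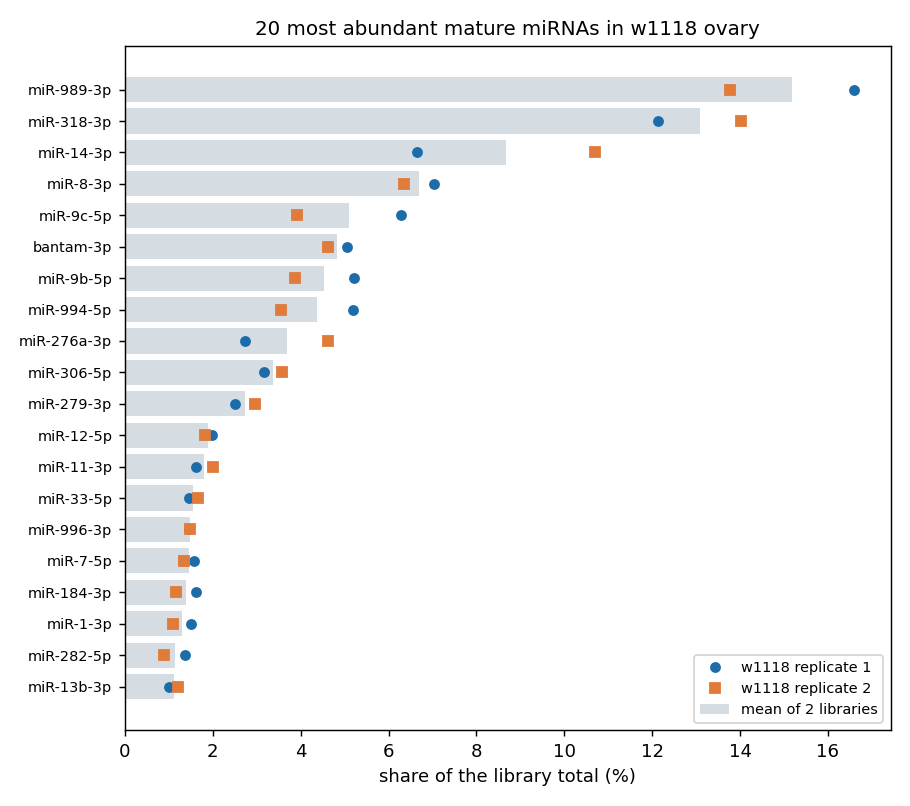
Share of the library total in percent for the 20 most abundant mature miRNAs. Bars are the mean of 2 libraries, circles w1118 replicate 1 and squares w1118 replicate 2; the markers of neighbours in rank overlap for most names, and miR-989-3p and miR-318-3p stand to the right of all others.

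The exact rank of most leading miRNAs was not resolved. Of the 19 pairs of neighbours in this order, 15 had libraries that overlapped, so that the lower library of the higher name was at or below the higher library of the lower name. The 4 steps without overlap were those from miR-318-3p to miR-14-3p, from miR-8-3p to miR-9c-5p, from miR-306-5p to miR-279-3p and from miR-279-3p to miR-12-5p. The same order in both libraries was seen at these 4 steps and at 4 of the overlapping ones, from miR-9b-5p to miR-994-5p, from miR-11-3p to miR-33-5p, from miR-184-3p to miR-1-3p and from miR-1-3p to miR-282-5p. Both names of a step come from the same libraries, and with 2 such pairs an exact two-sided paired permutation test cannot give a p below 0.5, so the steps were not tested. Of the 20 names, 18 were among the 20 leading names of both libraries, 11 were higher in replicate 1 and 9 in replicate 2.

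Levels of single miRNAs varied between the libraries by more than counting error in many cases. The 95% Wilson intervals of the shares did not overlap for 48 of the 112 names with a mean count of at least 10, or 42.9%. At a mean count of at least 50, 55 of 75 names were within 1.5-fold and 6 differed by more than 2-fold. miR-305-3p had 246 counts in replicate 1 and 658 in replicate 2, a 2.85-fold difference in CPM. miR-184-5p had 29 and 76 counts, miR-988-3p 31 and 70, miR-970-3p 59 and 114, and miR-311-3p 275 and 529, all higher in replicate 2. miR-282-3p had 305 and 118 counts and was the only one of the 6 that was higher in replicate 1.

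Families were formed by name, from 8 groups of miRNAs known to share a seed, with 30 mature names in all. The groups were listed by hand and may leave out other seed families. Leading names such as miR-989-3p and miR-306-5p are in none of them. The 8 groups held 37.8% ± 1.48 of counts. All 30 members had at least 1 count, against 44.6% of all names. The 30 are 1 arm of each miRNA, whereas all names include both arms of most precursors, so these shares are not like for like. Some members were near 0, such as miR-308-3p with 2 and 0 counts and miR-285-3p with 2 and 1. The miR-3 family (miR-3, miR-309 and miR-318) was the largest of the 8 at 13.1% ± 1.34, and miR-318-3p made up 99.99% of it. miR-3-3p, made in early embryos, had 0 and 2 counts, and miR-309-3p had 1 and 1. The miR-9 family reached 11.5% of replicate 1 and 7.80% of replicate 2. It was shared between miR-9c-5p and miR-9b-5p, while miR-9a-5p, which restrains sensory organ formation in the embryo and wing, had 55 and 41 counts.

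The miR-2 family, known for repressing proapoptotic genes such as reaper and grim, held 4.53% ± 0.633 over 8 members. No member held most of it: miR-11-3p led in both libraries and gave 40.0% of the family. It was followed by miR-13b-3p, then miR-2b-3p with 980 and 1357 counts and miR-2a-3p with 1115 and 998. At its low end miR-2c-3p had 64 and 89 counts, miR-6-3p 11 and 23, miR-13a-3p 2 and 1, and miR-308-3p 2 and 0. The miR-279 family held 4.21% ± 0.341, of which miR-279-3p gave 64.8% and miR-996-3p nearly all of the rest, with 3 and 6 counts for the embryonic member miR-286-3p. The miR-92 family, which joins miR-92a and miR-92b with the miR-310s, held 1.30% ± 0.322. miR-92a-3p led it with 689 and 837 counts, then came miR-312-3p with 444 and 488, miR-311-3p, miR-310-3p with 137 and 203, miR-313-3p with 34 and 60, and miR-92b-3p with 24 and 24.

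In the remaining families of the list 1 member stood far above the others. miR-995-3p gave 93.2% of the miR-285 family, the fly relatives of vertebrate miR-29, with 978 and 1177 counts, against 65 and 90 for miR-998-3p and 2 and 1 for miR-285-3p. miR-276a-3p gave 99.8% of its pair, and miR-276b-3p had 10 and 13 counts. miR-31a-5p had 691 and 638 counts and miR-31b-5p 67 and 57. Paralogs with near-identical sequences can take each other's reads, so the split within these pairs and within the miR-2 and miR-9 families depends on how reads were assigned.

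**Figure D3:**
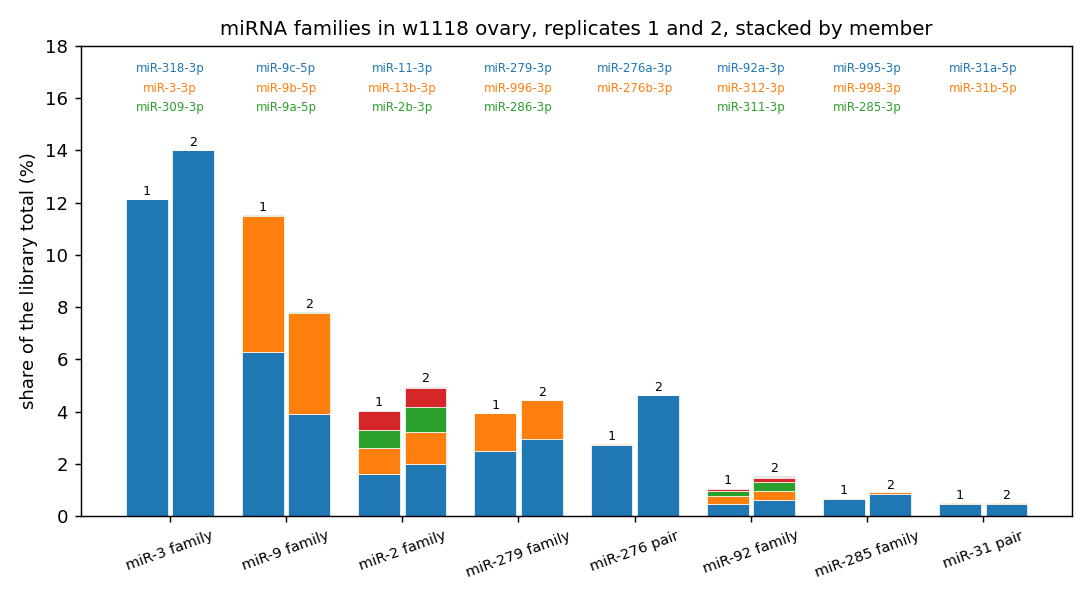
Share of the library total in percent for 8 miRNA families. The left bar of each pair is w1118 replicate 1 and the right bar w1118 replicate 2, stacked by member; the names above give the leading members in the colour of their part, and other colours are further members, as in the miR-2 and miR-92 families. The miR-3 family is nearly all miR-318-3p, whereas the miR-9 family is split between miR-9c-5p and miR-9b-5p.

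Neighbouring precursors were grouped where they lay on 1 strand with gaps of at most 10 kb in the Ensembl annotation of BDGP6, a later genome release than the BDGP5 build named in the submitters' processing notes, used only for which genes neighbour each other. It placed 254 of the 256 precursors, and 77 of them fell into 22 clusters. These clusters held 49.1% ± 0.811 of counts, 19 with at least 1 count and 3 with none. The total depends on the copy credited. It includes miR-13b-3p (1.11%), given to mir-13b-1, and leaves out miR-2b-3p (0.814%), given to mir-2b-1 outside the clusters. Each is also listed under another copy that would reverse this, and the total under those copies was not computed. The pair of mir-994 and mir-318 was the largest, at 17.5% of replicate 1 and 17.8% of replicate 2 (17.7% ± 0.182). Within it mir-318, counted over both arms, had 18081 and 19617 counts and mir-994 had 8049 and 5260, so the members moved in opposite directions between the libraries while their sum hardly changed. The cluster of mir-9c, mir-306, mir-79 and mir-9b, inside the checkpoint kinase gene grp, held 13.2% ± 2.34. Its members were uneven. mir-9c had 9360 and 5468 counts, mir-9b 7857 and 5494 and mir-306 4730 and 4999, whereas mir-79 had 233 and 230, and the pooled counts of mir-9c were 32.0 times those of mir-79.

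Other clusters showed both even and uneven output. mir-279 had 3723 and 4145 counts and mir-996 had 2282 and 2171, a ratio of 1.77. mir-305 had 1801 and 1820 counts and mir-275 had 787 and 1202, a ratio of 1.82. In the cluster inside Gmap, which encodes a Golgi protein, mir-12 had 2994 and 2578 counts, against 763 and 735 for mir-283 and 914 and 589 for mir-304. mir-34 had 526 and 760 counts and mir-317 had 551 and 511, while mir-277, between them, had 80 and 102. The let-7 complex, which times development and is processed from 1 transcript, ran from 1401 and 1567 counts for let-7 through 197 and 335 for mir-125 to 51 and 39 for mir-100, a range of 33.0-fold. Wide gaps also separated the members of 3 pairs. mir-11 had 2432 and 2845 counts and its neighbour mir-998 had 86 and 124. mir-92a had 805 and 904 and mir-92b 25 and 25, and mir-999 had 1304 and 871 and mir-4969 4 and 1. In the group of the miR-310s, mir-312 had 491 and 566 counts, mir-311 had 308 and 555, mir-310 had 138 and 203 and mir-313 had 41 and 63. Their neighbour mir-991 had 9 and 4 counts, and mir-992 and mir-2498 had 0.

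Copies of 1 mature miRNA at several places limited what could be said of the miR-2 and miR-13b clusters. miR-2b-3p is listed under mir-2b-2, in the cluster inside the EGF receptor ligand gene spi, and under mir-2b-1, elsewhere. With miR-2b-3p assigned to mir-2b-1 the spi cluster held 1.29% ± 0.0145 of counts, and with it assigned to mir-2b-2 it held 2.10% ± 0.208. miR-13b-3p is listed under mir-13b-1, in the cluster with mir-2c and mir-13a, and under mir-13b-2, elsewhere. The opposite arms are listed by copy: the 5p arm of mir-13b-1 had 0 and 0 counts and that of mir-13b-2 had 69 and 71. The 5p arm had 390 and 330 counts for mir-2b-2 and 3 and 7 for mir-2b-1, and for the copies of miR-2a it had 336 and 377 for mir-2a-2 and 90 and 78 for mir-2a-1. The 3p rows were nearly equal for miR-2b-3p, at 980 and 1357 counts under mir-2b-1 and 976 and 1355 under mir-2b-2. Those of miR-13b-3p were nearly equal too, at 1501 and 1684 under mir-13b-1 and 1501 and 1683 under mir-13b-2. For miR-2a-3p they were 1115 and 998 under mir-2a-2 and lower, 1000 and 904, under mir-2a-1. These rows do not show which copy gave the reads.

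**Figure D4:**
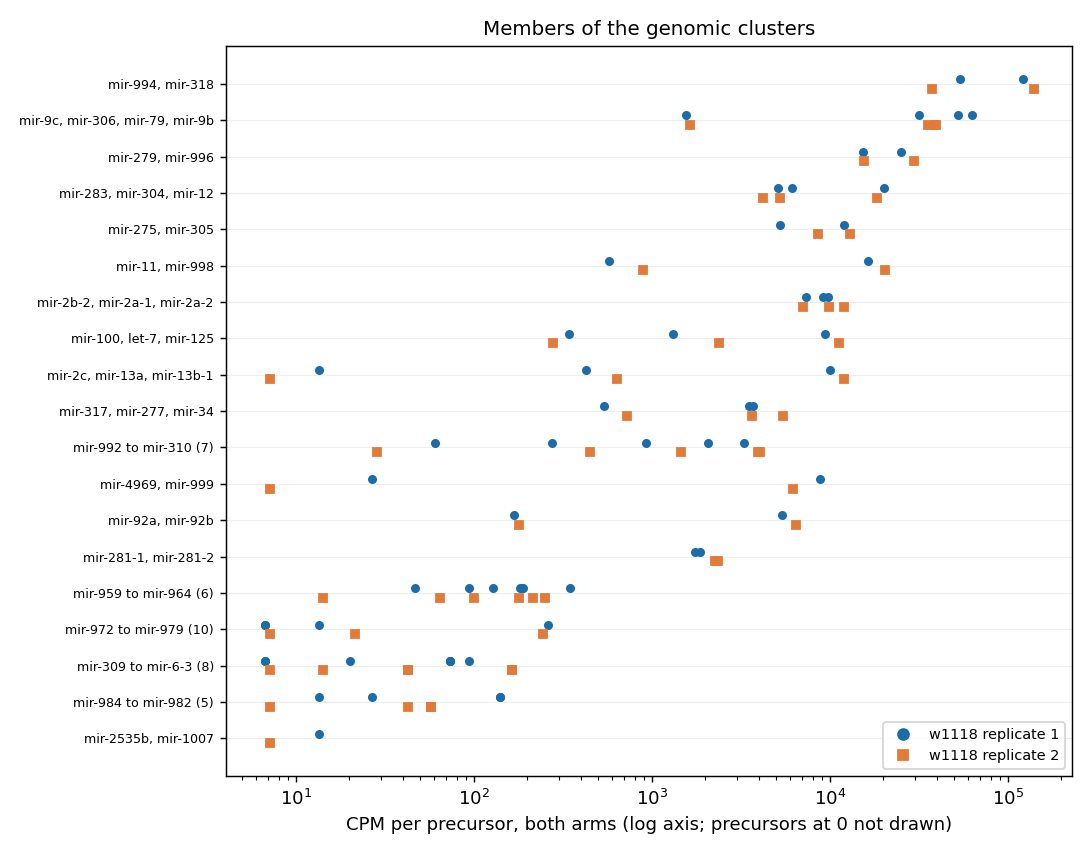
CPM of each precursor, both arms together, on a log axis for the 19 genomic clusters with a count, ordered by their share. Circles are w1118 replicate 1 and squares w1118 replicate 2, precursors at 0 are not drawn, and long clusters are named by their first and last member with the number of members in brackets; the mir-279 and mir-996 pair lies close together, whereas mir-79 lies far below mir-9c, mir-306 and mir-9b.

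More of the annotated precursors than of the counts lay inside protein-coding genes. On the same strand, 136 of 254 precursors (53.5%) were contained in a protein-coding gene, and these gave 28.4% of counts in replicate 1 and 25.7% in replicate 2. The share depends on the copy credited. The 1501 and 1684 counts of miR-13b-3p were given to mir-13b-1, which had no host, and not to mir-13b-2, inside CCT2. The other assignment was not tested. The 4 precursors with the highest levels, mir-989, mir-318, mir-14 and mir-8, had no such host. Beside grp, Gmap, E2f1, SREBP and spi, the hosts of the higher ones were HnRNP-K for mir-7, the cell cycle kinase gene Cdk2 for mir-995, CASK for mir-999 and jigr1 for mir-92a.

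Most precursors gave nearly all their counts from 1 arm. Both arms are listed for 218 precursors, and 72 of them had at least 20 counts on both arms together in each library. The 5p arm led in 28 of these (38.9%) and the 3p arm in 41 (56.9%), by a 95% Wilson interval of the 5p share above or below 50% in both libraries, and 3 had no such leading arm. Of the 41, 8 are copies that share a 3p name (of miR-2a, miR-2b, miR-13b and miR-281), and without them the calls were 28 for 5p and 33 for 3p. The median share of the leading arm was 97.8%, and 54 precursors had at least 90% on it. Of all counts, 30.4% ± 3.96 were on 5p arms and 69.6% ± 3.96 on 3p arms, and the weaker arms together held 2.20% ± 0.263 of the counts of the 72 precursors.

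One-sided precursors were found among the most abundant and among the less abundant ones. For mir-318 the 5p arm had 1 and 0 counts and the 3p arm 18080 and 19617. For mir-989 the 5p arm had 2 and 11 counts and the 3p arm 24736 and 19263. mir-279 had 2 and 3 counts on the 5p arm and 3721 and 4142 on the 3p arm, and mir-999 had 0 and 2 against 1304 and 869. Copies of the miR-2 family also stood at this end, with 0 and 0 counts on the 5p arm of mir-2c and 64 and 89 on its 3p arm, and with mir-13b-1, whose 3p counts may belong to mir-13b-2. At the 5p end, mir-306 had 4730 and 4999 counts on the 5p arm and 0 on the 3p arm, which allows a 3p share of up to 0.0811% in replicate 1 and 0.0768% in replicate 2 by the Wilson interval. mir-9c had 9360 and 5467 counts on the 5p arm and 0 and 1 on the 3p arm, and mir-316 had 1073 and 983 against 6 and 7. mir-31b, mir-962 and mir-9a had no 3p count either, at 5p counts of 67 and 57, of 52 and 35 and of 55 and 41.

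A few precursors kept both arms. mir-10, from the Antennapedia Hox complex, had 10 and 13 counts on the 5p arm and 12 and 12 on the 3p arm. It was the only one of the 72 whose arm with more counts differed between the libraries. Its 5p share was 45.5% in replicate 1 (26.9 to 65.3) and 52.0% in replicate 2 (33.5 to 70.0), so neither arm led by the interval rule. mir-277, a regulator of branched-chain amino acid breakdown, had 41 and 61 counts on the 5p arm and 39 and 41 on the 3p arm. The 5p share of mir-988 was 74.6% in replicate 1 (66.2 to 81.5) and 54.2% in replicate 2 (46.3 to 61.9). The 3p arm led, with a sizeable 5p share, in mir-1012, mir-998 and mir-2a-2. mir-1012, a mirtron, had 69 and 66 counts on the 5p arm and 135 and 164 on the 3p arm. mir-998 had 21 and 34 against 65 and 90, and mir-2a-2 had 336 and 377 against 1115 and 998. miR-2a-3p is also listed under mir-2a-1, so the 3p counts of mir-2a-2 may belong to that copy. mir-305 showed a wide shift between the libraries, with a 5p share of 86.3% in replicate 1 (84.7 to 87.8) and 63.8% in replicate 2 (61.6 to 66.0), with 1555 and 1162 counts on the 5p arm and 246 and 658 on the 3p arm.

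Leading arms were common to some clusters and mixed in others. Over the 72 precursors 38.9% led with 5p and 56.9% with 3p. Whether neighbours agreed more often than these shares give was not tested. All 3 precursors of the let-7 complex, all 3 of the mir-12 cluster and the 3 of the mir-959 group that had enough counts led with the 5p arm, and all 4 of the miR-310s that had enough counts led with the 3p arm. The cluster in grp was mixed, with 5p for mir-9c, mir-306 and mir-9b, and 3p for mir-79, at 28 and 21 counts on the 5p arm and 205 and 209 on the 3p arm. mir-994 led with 5p (7721 and 4954 counts, against 328 and 306 on the 3p arm), whereas its neighbour mir-318 led with 3p. mir-305 led with 5p and mir-275 with 3p, and mir-34 led with 5p, mir-317 with 3p and mir-277 with neither.

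Some arm calls, chosen after their values were seen, need care. mir-308, inside the ribosomal protein gene RpS23, had 101 and 79 counts on the 5p arm and 2 and 0 on the 3p arm, although it is the 3p arm that belongs to the miR-2 family. mir-276b led with 5p, at 94 and 83 counts against 10 and 13 on the 3p arm, but miR-276a-5p is listed with the same 94 and 83 counts. Reads that fit both 5p arms may have been counted on each, so the 5p call of mir-276b rests on counts that may belong to mir-276a, whose 3p arm had 4086 and 6475.

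**Figure D5:**
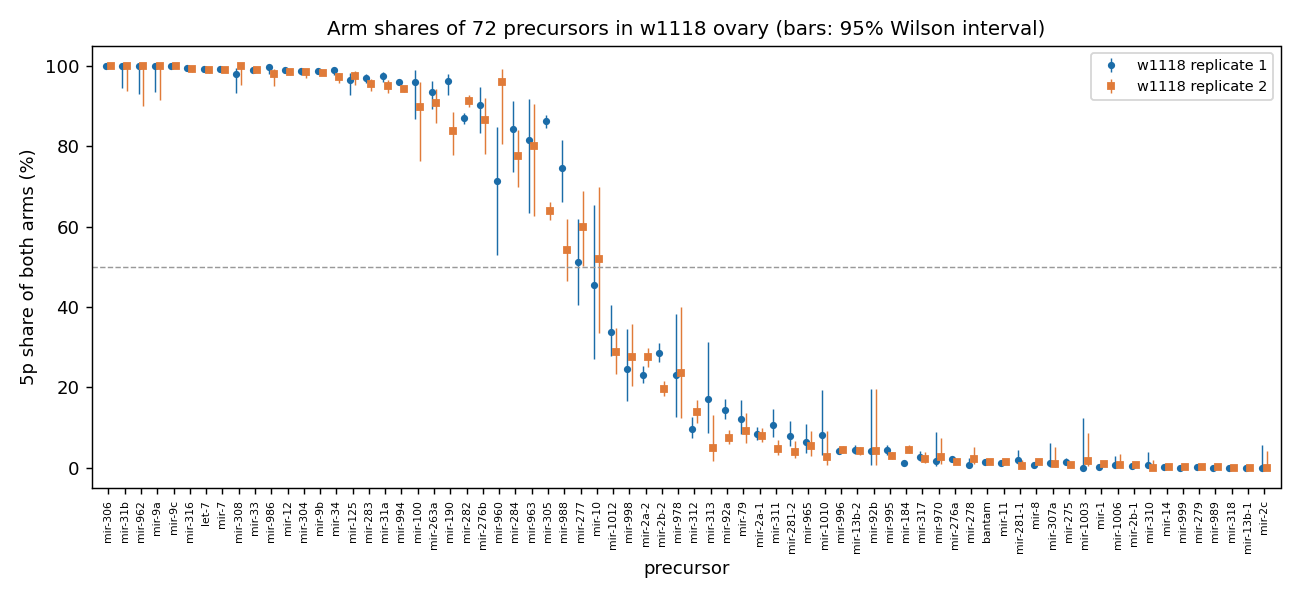
Share of the 5p arm in the counts of both arms, in percent, for the 72 precursors with at least 20 counts in each library, ordered by their mean. Circles are w1118 replicate 1, squares w1118 replicate 2, bars 95% Wilson intervals, and the dashed line marks 50%; most precursors lie near 100% or near 0%, and mir-988, mir-277 and mir-10 lie between.

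Counts were summed over lists of miRNAs known from cell types of the ovary and from other tissues. The lists were chosen with earlier results of these data known, so their counts do not test the label of the tissue. A list of miRNAs of later-stage follicle cells and of border cells took the neighbours miR-994 and miR-318, the neighbours miR-279 and miR-996, and miR-989. It had counts for 10 of 10 names, against 44.6% of all 466 names, though miR-318-5p had 1 and 0 and miR-279-5p 2 and 3. The list held 37.1% ± 1.46 of all counts. The pair of mir-994 and mir-318 gave 17.7% ± 0.182 and that of mir-279 and mir-996 gave 4.27% ± 0.345. miR-989-3p gave 15.2% ± 1.99. The list of germline regulators was made of miR-7, miR-34, miR-184, miR-278 and bantam. It had 10 of 10 names with a count, against 44.6% of all names, and held 8.44% ± 0.667. Among them miR-34-5p, which is passed from mother to embryo, had 521 and 739 counts and miR-278-3p had 299 and 222. Of the let-7 complex 6 of 6 names had a count, against 44.6% of all names. Its share was 1.25% ± 0.199, led by let-7-5p with 1390 and 1551 counts and miR-125-5p with 190 and 327. The median over all 466 names was 0 CPM, since more than 50% of them had no count.

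Of the miRNAs of other tissues, miR-1-3p and miR-281-3p stood well above the median of 93.0 CPM over the 208 names with a count. Of their 5p arms, miR-1-5p (63.7 CPM) and miR-281-1-5p (20.3 CPM) lay below it and miR-281-2-5p (120 CPM) just above. Of the muscle list, miR-1-3p stood at 12983 ± 3012 CPM, rank 18, while miR-133-3p had 3 and 1 counts and miR-133-5p 0. The muscle list as a whole held 1.52% of replicate 1 (95% Wilson interval 1.45 to 1.58) and 1.10% of replicate 2 (1.04 to 1.15), and how much of it came from the muscle sheath was not tested. Of the 8 names of the nervous system list, miR-137-3p alone had a count, 1 and 2; miR-137-5p and both arms of miR-124, miR-210 and miR-219 were at 0. miR-281-3p, a miRNA of gut and Malpighian tubule, had 256 and 314 counts (1981 ± 373 CPM, rank 41). It is listed under both mir-281 copies with the same counts, and the 5p arm had 5 and 1 counts for mir-281-1 and 22 and 13 for mir-281-2. Of all 466 names 44.6% had a count. Of the early embryo list, 7 of 14 names had one, near that share, and 0.0236% ± 0.00498 of all counts fell on them, led by miR-6-3p, miR-5-5p with 13 and 6, and miR-286-3p. The 7 at 0 were all 5p arms, those of miR-286, miR-3, miR-309, miR-4 and the 3 copies of miR-6.

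The list of testis-enriched miRNAs had counts for 23 of 42 names, against 44.6% of all names, and its share of counts was 0.137% ± 0.0202. It was led by miR-962-5p with 52 and 35 counts, miR-978-3p with 30 and 26, miR-963-5p with 22 and 24 and miR-960-5p with 20 and 24. In the cluster that runs from mir-972 to mir-979, mir-978 gave 90.1% of counts, with 39 and 34. Its neighbours mir-976, mir-977 and mir-979 had at most 3 counts in a library, and mir-972, mir-973, mir-974 and mir-975 had 0, as did mir-9369 and mir-2499 between them. In the cluster of mir-303 and mir-982 to mir-984, miR-983-5p had 20 and 8 counts and mir-303 had 0. Mirtrons, spliced introns that bypass Drosha, had 17 of 24 names with a count, against 44.6% of all names, and held 0.398% ± 0.0498. miR-1006-3p led them with 194 and 167 counts, followed by miR-1012-3p, miR-1012-5p and miR-1010-3p, which had 45 and 75 counts. miR-1004, miR-1011, miR-1015 and miR-1017 had 0 on every listed arm, as did miR-1007-5p and miR-1016-3p.

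No count was seen for 258 of 466 names (55.4%), 128 of them 5p and 130 of them 3p arms. Of the 208 names with a count, 168 had one in both libraries and 40 in 1 library only, where the highest was 4 counts. These 40 are among the 77 names whose summed count was 1 to 9. The zeros were of 2 kinds. For 48 names the other arm had a count, as for miR-306-3p. The other 210 names came from 121 of 256 precursors with no count on any listed arm (47.3%). They include the nervous system precursors mir-124, mir-210 and mir-219 and, in clusters otherwise counted, mir-992, mir-2498, mir-303, mir-972 to mir-975, mir-2499, mir-9369 and mir-2535b. In 3 clusters no member was counted: mir-124 with mir-287, mir-969 with mir-210, and mir-968 with mir-1002. miRNAs are numbered in the order in which they were registered, and by a division chosen after the values were seen, 87 of 103 precursors numbered 2000 or higher had no count (84.5%), against 34 of 153 with lower numbers or none (22.2%). The most abundant of the higher-numbered names, miR-2279-5p, had 2 and 4 counts and rank 142. At this depth a miRNA at 0 in both libraries is limited to 10.4 CPM and is not shown to be absent.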

How the data were processed

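Libraries were made from ovarian total RNA with the QIAseq miRNA kit, which assigns UMIs, per the labels' protocols. bcl2fastq 2.20, Trimmomatic and BDGP5 are named in the submitters' processing notes; the aligner, the counting tool and whether UMIs were collapsed are not stated in these sources. The authors deposited raw read counts in 474 rows, each a mature miRNA of a precursor, and CPM values, which were not used. The control columns, headed W118 per the file headers, were taken as w1118. Of the 466 names, 7 had more than 1 row, 15 rows in all; the row with the highest summed count was kept, so totals are 149072 and 139865 rather than the 152848 and 144175 over all rows. Values are means ± SD of 2 libraries. Intervals are Wilson 95% intervals (scipy 1.17.1), and the spread between libraries is the common dispersion of edgeR 4.0.16 with TMM scaling, checked on simulated data. DESeq2 1.42.0 gave alternative size factors.

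Families were formed by name, since mature sequences were not used here. Named miRNAs are the 20 most abundant, leading and lowest members of families and clusters, up to 4 members per marker list, the 6 precursors nearest to equal arms, the 6 most one-sided to each side, the 6 with the widest library ratio, and listed miRNAs at 0; any further ones were picked with their values in view. The members, lists and rules were chosen with earlier results of these data known.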

Additional observations from a re-analysis of the deposited data

How the results depend on the processing

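No paired analysis was possible because no groups were compared. The 10 leading names held 67.6% with all rows of a name summed or the total taken over all rows, and 67.3% with miR-989-3p left out. The cluster of mir-994 and mir-318 held 17.2% under both of the first settings and 20.8% without miR-989-3p, and the miR-3 family 15.4% without it; they stayed the largest under every alternative run. With a summed count of at least 10, 131 names counted as seen. The coefficient of variation was 0.239 with RLE scaling or without the 10 most abundant names, 0.250 with library totals, 0.244 with no filter on low counts and 0.243 with rows summed; it cannot be had from 1 library. Without replicate 1 or without replicate 2, names with a count ranged from 185 to 191, names with none from 275 to 281, the share of the 10 leading names from 69.0% to 70.0%, names holding 90% from 25 to 27, the largest family from 12.1% to 14.03%, the largest cluster from 17.5% to 17.8%, and leading arms from 29 to 31 for 5p and 41 to 44 for 3p. Of values of single miRNAs, families, clusters and lists, 41 of 81 moved by more than 1 SD of the libraries with miR-989-3p left out, 15 of 82 with rows summed, 6 of 71 with a mean count of at least 10, 5 of 82 with the total over all rows and 1 of 82 with the first row of a name. A single library always lies within 1 SD of the mean of 2, so leaving out a library says nothing about the stability of a share. Leaving out copies that share a mature name gave 28 leading 5p and 33 leading 3p arms, and leaving out the mir-276 pair, chosen after seeing the data, gave 27 leading 5p and 40 leading 3p arms. Seeds of 6 bases were not run. Depth limits values under about 20 CPM, where a library holds 3 counts or fewer.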
